A study of Mus musculus with 3 samples.

Results

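The genes described here encode dual-specificity phosphatases that act on MAP kinases. They were chosen by gene symbol from a list of 10 (Dusp1, Dusp2, Dusp3, Dusp4, Dusp5, Dusp6, Dusp7, Dusp8, Dusp10 and Dusp16), and all 10 were found among the 55536 annotated genes of the tables. The cells were primary macrophages grown from bone marrow of the mouse strain C57BL/6J, and RNA of their cytosolic fraction was sequenced after depletion of ribosomal RNA. All libraries share 1 treatment: 100 ng/ml Lipid A for 12 h, a washout of 12 h, and 100 ng/ml Lipid A again for 10 min. Lipid A is the part of bacterial endotoxin sensed by Toll-like receptor 4. The 3 libraries are labelled biological replicates 1, 2 and 3 and carry a single donor identifier. Whether they came from separate animals is not stated, so p-values measure only the spread between these libraries. With no untreated or singly treated group analysed here, the values below are levels and not responses.

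MAP kinases are switched on by phosphorylation of a threonine and a tyrosine in their activation loop, and these phosphatases remove both phosphates. Most family members recognise ERK, JNK or p38 through a docking domain, and many are transcribed in response to the very kinases they inactivate, which makes them feedback regulators. In macrophages Dusp1 is known as a brake on p38 and JNK after Toll-like receptor stimulation, and its mRNA as short-lived. Dusp1, Dusp2, Dusp4 and Dusp5 encode inducible nuclear enzymes. Dusp6 and Dusp7 encode cytoplasmic enzymes that act on ERK, and Dusp8, Dusp10 and Dusp16 encode enzymes that act mainly on JNK and p38. Dusp3 encodes a small atypical enzyme with no docking domain.

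A feature that all members share is the catalytic loop, a histidine and the nucleophilic cysteine followed by 5 residues and an arginine. Its codons are shown to let the members be compared. They were read from the leading coding transcript of each gene in GENCODE M21 (mm10), 5′ to 3′ on the gene's strand, with the histidine, cysteine and arginine codons in capitals. Each match was the only one in its reading frame, and each lay within a single coding exon.
Dusp1 (chr17:26506592-26506615, minus strand, exon 4): CATTGCcaggccggcatctccCGG
Dusp2 (chr2:127337616-127337639, plus strand, exon 4): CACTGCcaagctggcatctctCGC
Dusp4 (chr8:34818433-34818456, plus strand, exon 4): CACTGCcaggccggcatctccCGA
Dusp5 (chr19:53540951-53540974, plus strand, exon 4): CACTGCgaagctggggtttccCGG
Dusp6 (chr10:99266027-99266050, plus strand, exon 3): CATTGCttggcaggtatcagcCGC
Dusp7 (chr9:106373674-106373697, plus strand, exon 3): CACTGCctagcaggcatcagcCGT
Dusp8 (chr7:142083333-142083356, minus strand, exon 6): CACTGTctggctggcatctctCGC
Dusp10 (chr1:184074293-184074316, plus strand, exon 4): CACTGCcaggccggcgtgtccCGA
Dusp16 (chr6:134720559-134720582, minus strand, exon 6): CACTGCttagctgggatctctCGC
Dusp3 (chr11:101974902-101974925, minus strand, exon 3): CATTGCcgcgagggctacagcCGC

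Counting from the histidine, the residue at position 5 was glycine and that at position 7 serine in 10 of 10 members. Position 4 was alanine in 9 of 10, with glutamate in Dusp3. Position 3 split the family: glutamine in 4 members, Dusp1, Dusp2, Dusp4 and Dusp10; leucine in Dusp6, Dusp7, Dusp8 and Dusp16; glutamate in Dusp5; and arginine in Dusp3. The reading frames ran from 185 codons in Dusp3 to 663 in Dusp8. Dusp8 and Dusp16 continued for 411 and 410 codons beyond the arginine, against 51 to 115 in the other 8 members.

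The libraries held 32108408, 53165872 and 57117456 expected counts in replicates 1, 2 and 3, an expected count being an estimate of the reads of a gene. All 8 macrophage markers checked were present, the lowest being Mertk with a mean of 41.1 TPM, and none of 10 markers of other cell types reached 1 TPM in every library. The highest of those, Pecam1, had 1.42, 0.58 and 0.87 TPM in replicates 1, 2 and 3 (mean 0.957), so it passed 1 TPM in replicate 1. Cd3e, Nkg7, Ly6g and Hbb-bs had 0 counts. TPM is an abundance per unit of transcript length, scaled to a fixed total in each library. Replicate 1 stood apart in RNAs known to stay in the nucleus: the list of 8 summed to 1437, 134 and 171 TPM in replicates 1, 2 and 3. All 6 of its testable members were highest in replicate 1, and Meg3 and Miat had 0 counts. Nuclear-encoded protein-coding genes filled 34.3%, 27.8% and 27.8% of TPM, so libraries were compared on log2 CPM, counts relative to the TMM-scaled library total, and genes on TPM. In these bulk samples fewer expressing cells and less RNA per cell cannot be told apart.

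Dusp3, Dusp7 and Dusp1 held most of the family's RNA. Of the 10 members 6 reached 1 TPM in every library (Dusp3, Dusp7, Dusp1, Dusp2, Dusp6 and Dusp16), and Dusp4, Dusp10, Dusp5 and Dusp8 did not. By the same rule 41.4% of nuclear-encoded protein-coding genes were detected. The members together summed to 63.2, 62.7 and 53.1 TPM in replicates 1, 2 and 3. The atypical Dusp3 alone took 46.7% ± 3.59 (SD, n = 3) of that sum, the 2 ERK-directed cytoplasmic genes 27.7% ± 1.08, the 4 nuclear inducible genes 20.8% ± 3.40, and the 3 JNK- and p38-directed genes 4.83% ± 1.10.

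**Figure D1:**
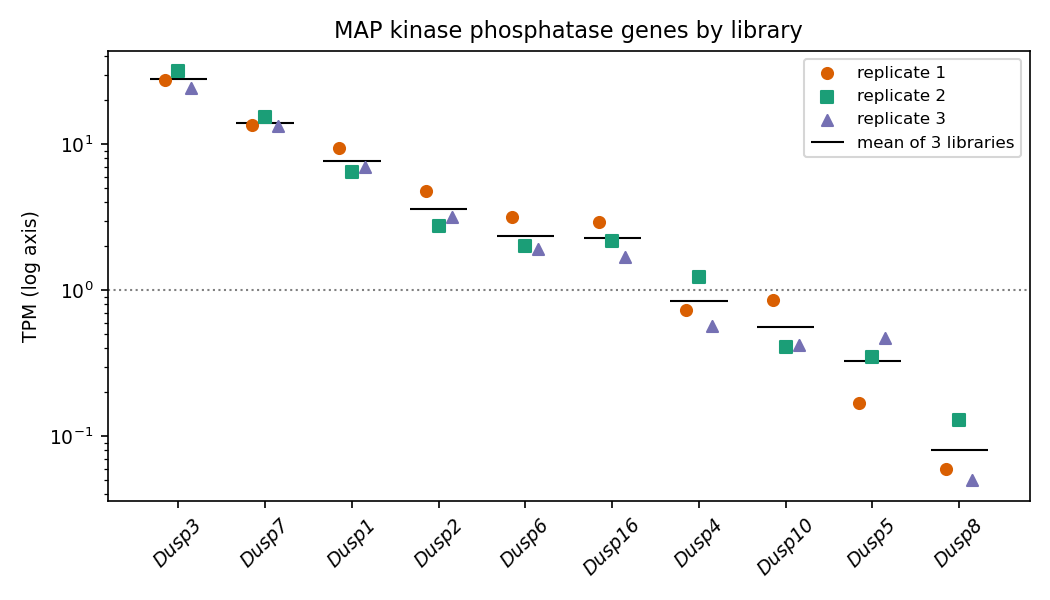
TPM (log axis) of each member in each library, ordered by the mean of the 3 libraries (black bars); the dotted line marks 1 TPM. Dusp3 lies highest, between 24.5 and 31.7 TPM, and Dusp8 lowest, between 0.05 and 0.13 TPM.

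Among the nuclear inducible members, Dusp1 (ENSMUSG00000024190.7, chromosome 17, 26505590 to 26562128) measured 9.49, 6.48 and 7.01 TPM across replicates 1, 2 and 3, a mean of 7.66 ± 1.61 TPM (SD, n = 3). Replicate 1 was its highest library on this scale. These levels rested on 684, 1024 and 1224 expected counts. Dusp2 (ENSMUSG00000027368.6, chromosome 2, 127336159 to 127338376), known as a phosphatase of activated leukocytes, had 4.80, 2.76 and 3.19 TPM (3.58 ± 1.08), again highest in replicate 1. Dusp4 (ENSMUSG00000031530.6, chromosome 8, 34807297 to 34819894) had 0.73, 1.23 and 0.57 TPM (0.843 ± 0.344), and only replicate 2 passed 1 TPM. Dusp5 (ENSMUSG00000034765.6, chromosome 19, 53529109 to 53542431), whose product binds ERK in the nucleus, had 0.17, 0.35 and 0.47 TPM (0.33 ± 0.151) from 17, 74 and 108 expected counts. Its lowest library was replicate 1, where counting error alone was 24.3% of the value.

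The cytoplasmic ERK phosphatases differed in level. Dusp7 (ENSMUSG00000053716.9, chromosome 9, 106368632 to 106375724) had 13.6, 15.5 and 13.3 TPM, a mean of 14.1 ± 1.2 TPM (SD, n = 3). Its coefficient of variation was the smallest of the family on the TPM scale (8.53%). On the CPM scale its highest library exceeded its lowest by 1.25 times, against 1.15 times for Dusp1. Dusp6 (ENSMUSG00000019960.8, chromosome 10, 99263231 to 99267489), widely used as a readout of ERK activity, had 3.18, 2.02 and 1.92 TPM (2.37 ± 0.700). No library of Dusp6 reached the lowest library of Dusp7.

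Genes of the JNK- and p38-directed enzymes were low throughout. Dusp16 (ENSMUSG00000030203.17, chromosome 6, 134715468 to 134792625), which encodes a JNK phosphatase, led them with 2.93, 2.18 and 1.69 TPM (2.27 ± 0.625, SD, n = 3). Dusp10 (ENSMUSG00000039384.8, chromosome 1, 184013302 to 184075636) had 0.86, 0.41 and 0.42 TPM (0.563 ± 0.257) and stood higher in replicate 1 than in the other libraries. Dusp8 (ENSMUSG00000037887.11, chromosome 7, 142079490 to 142095843) was the lowest member with 0.06, 0.13 and 0.05 TPM (0.08 ± 0.0436), from 12, 57 and 23 expected counts.

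The atypical Dusp3 (ENSMUSG00000003518.13, chromosome 11, 101971143 to 101987013), whose product acts on ERK and JNK, had 27.4, 31.7 and 24.5 TPM, a mean of 27.9 ± 3.61 TPM (SD, n = 3). All of its libraries lay above every library of the other 9 members. Its mean exceeded that of 92.3% of nuclear-encoded protein-coding genes, and of 81.4% of those that reached 1 TPM in every library. Dusp3 was the only member with fractional counts, the other 9 having whole ones (tolerance 0.005). The antisense gene Gm20659 overlaps its exons and had 9.68, 9.52 and 6.12 TPM. In expected counts Gm20659 had 162, 341 and 229, beside 4036, 9494 and 8145 for Dusp3. The sources used here do not give the strand setting, so reads of Dusp3 and Gm20659 cannot be told apart with certainty. Dusp1 likewise overlaps Ergic1 on the opposite strand (12.3, 13.0 and 12.3 TPM), though its own counts were whole.

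In the order of means, Dusp3 exceeded Dusp7 by 1.97 times, Dusp7 exceeded Dusp1 by 1.84 times and Dusp1 exceeded Dusp2 by 2.14 times, in each case without overlap of the libraries. Dusp16 over Dusp4 (2.69 times) and Dusp5 over Dusp8 (4.12 times) did not overlap either. The neighbours Dusp2 and Dusp6, Dusp6 and Dusp16, Dusp4 and Dusp10, and Dusp10 and Dusp5 did not differ beyond their spread. Within each library, however, Dusp2 was above Dusp6 in 3 of 3, whereas the other 3 of these pairs kept their order in 2 of 3. The second transcript table, an estimate made directly from the reads, gave the same order for all 10 members but lower means, 12.2 TPM for Dusp3, 6.04 for Dusp7 and 3.55 for Dusp1. Its TPM also differed in the order of libraries: Dusp3 had 18.7, 11.1 and 6.87 TPM there in replicates 1, 2 and 3, and Dusp7 had 9.75, 4.83 and 3.54, both highest in replicate 1. Dusp4 (0.547, 0.449 and 0.17 TPM) and Dusp8 (0.0655, 0.0546 and 0.0202) were also highest in replicate 1 there, and Dusp5 alone was not. The TPM levels above therefore hold for the first table only. On the CPM scale the 2 tables were closer: replicate 1 was highest for 4 of 10 members in the second and 5 in the first.

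All 10 members varied between libraries by more than counting error (chi-square test of rounded counts against a single rate, edgeR TMM library sizes, Benjamini-Hochberg adjusted p of at most 0.05 over 12515 genes). The same call was made for 71.5% of the genes tested, so it is common in these libraries and does not set the family apart. The smallest adjusted p was that of the most deeply counted member, Dusp3 (6.14e-77), and the largest that of Dusp1 (0.00858). On the CPM scale the highest library exceeded the lowest by 1.15 times for Dusp1, 1.25 for Dusp7, 1.26 for Dusp6, 1.34 for Dusp16, 1.36 for Dusp3 and 1.39 for Dusp2. The members under 1 TPM ranged more widely, by 1.74 times for Dusp10, 2.10 for Dusp4, 2.58 for Dusp8 and 3.28 for Dusp5. The biological coefficient of variation estimates the spread left after counting error. In edgeR each gene's value is drawn toward that of genes of similar counts, so it is not the gene's own spread alone. This coefficient was 0.132 for Dusp7, 0.14 for Dusp1, 0.16 for Dusp3 and 0.166 for Dusp16, below the median of 0.172 over all genes tested. It reached 0.468 for Dusp8 and 0.474 for Dusp5, both of low counts. Without replicate 1 the median over all genes was 0.104.

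Calls depended on the libraries included. Without replicate 1, 7 of 10 members varied, against 40.4% of all genes: Dusp5 (adjusted p = 0.093 by the same edgeR-scaled chi-square test), Dusp6 (0.789) and Dusp10 (0.842) no longer passed. Without replicate 2, 6 of 10 varied, against 58.2% of all genes, and Dusp1 (0.641), Dusp2 (0.150), Dusp4 (0.776) and Dusp8 (0.931) no longer passed. The calls of Dusp3, Dusp7 and Dusp16 held whichever library was left out.

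Replicate 1 was the highest library on log2 CPM for 5 of 10 members, Dusp1, Dusp2, Dusp6, Dusp10 and Dusp16, against 39.8% of all genes tested. Relative to the mean of replicates 2 and 3, log2 CPM in replicate 1 differed by 0.77 for Dusp10, 0.33 for Dusp2, 0.32 for Dusp6, 0.30 for Dusp16 and 0.12 for Dusp1. It differed by -0.25 for Dusp7, -0.29 for Dusp3, -0.46 for Dusp4, -0.71 for Dusp8 and -1.49 for Dusp5. Over all genes tested the 10th to 90th percentile of this difference ran from -0.44 to 0.64. The nuclear RNAs Malat1, Neat1 and Xist differed by 3.40, 2.37 and 6.15. Their part in the values of the phosphatase genes was not tested.

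**Figure D2:**
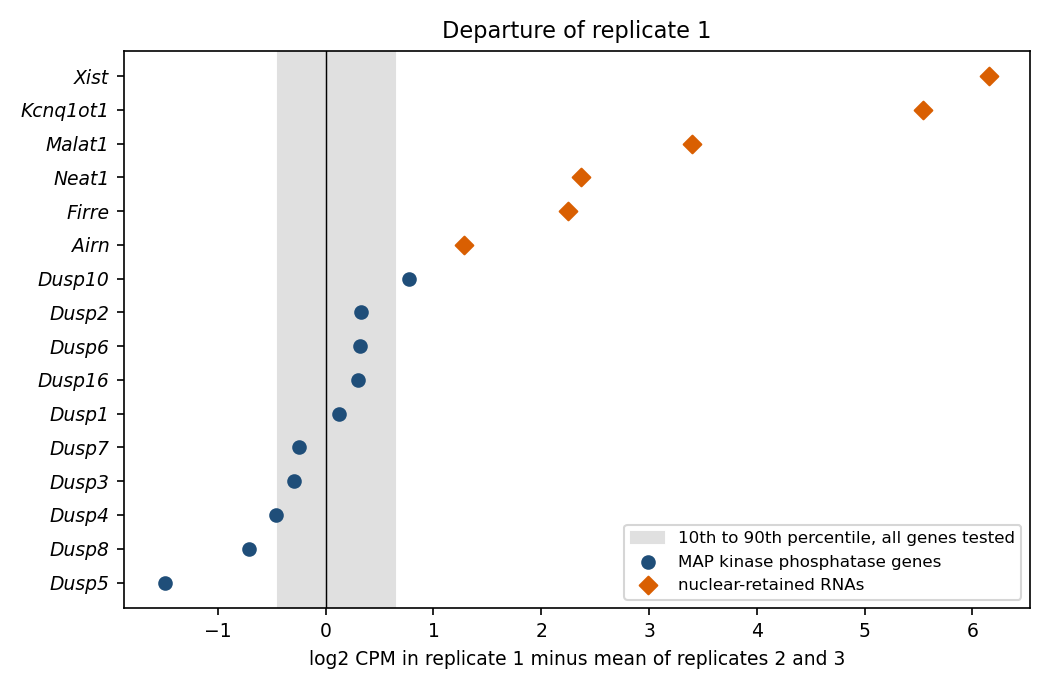
Log2 CPM in replicate 1 minus the mean of replicates 2 and 3, for each member (circles) and for the 6 testable nuclear-retained RNAs (diamonds); the band spans the 10th to 90th percentile of all genes tested. Members lie on both sides of 0, from -1.49 for Dusp5 to 0.77 for Dusp10, and every nuclear RNA lies to their right.

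Replicate 1 also differed in transcript shares. The authors' tables give each transcript as a percent of its gene's TPM, and 4 of the annotated transcripts of members are of the retained-intron class, in which an intron of the mature mRNA is kept: Dusp1-203, Dusp1-204, Dusp2-202 and Dusp16-206. Retained-intron forms took 20.8%, 4.40% and 6.09% of Dusp1 in replicates 1, 2 and 3, and 23%, 16.3% and 11.6% of Dusp2. Both genes were highest in replicate 1. For Dusp1 the other libraries were close together, whereas for Dusp2 all libraries were above 10%. Dusp16-206 was at 0 in every library of this table, while the second transcript table gave it 11.2% in replicate 1 and 0 in the others. The remaining 7 members have no annotated form of this class.

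With means of 10.4% ± 9.02 for Dusp1 and 17.0% ± 5.73 for Dusp2 (SD, n = 3), 2 of 10 members reached a share of 10%. Both are among the 6 members of at least 1 TPM in every library, and 11.3% of protein-coding genes of at least 1 TPM reached that share. Without replicate 1 the mean for Dusp1 was 5.25% and only Dusp2 (14%) stayed above 10%. A share highest in replicate 1 was the rule across the transcriptome: it held for 86.1% of the 5509 protein-coding genes of at least 1 TPM with a share above 0. Their median share was 5.75%, 0.78% and 0.79% in replicates 1, 2 and 3. The second transcript table gave 26.3%, 5.18% and 7.48% for Dusp1 and 26.2%, 21.4% and 15.6% for Dusp2, the same order of libraries.

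These forms rested on modest counts. Dusp1-203 had 102, 28.3 and 47.7 expected counts (with deposited posterior SDs of 15.6, 8.50 and 10.4) and Dusp1-204 had 25.1, 8.15 and 12.7 (2.75, 1.87 and 2.39). Dusp2-202 had 26.3, 22.6 and 19.7 (1.08, 0.71 and 0.79), so its assignment was the more certain. Expected counts are not divided by transcript length as TPM is, so short transcripts weigh less in a share of counts. By that share the retained-intron forms amounted to 18.6%, 3.56% and 4.94% of Dusp1 and 10.1%, 6.97% and 4.66% of Dusp2. With them left out, Dusp1 stood at log2 CPM of 4.16, 4.2 and 4.34 in replicates 1, 2 and 3, so replicate 1 was no longer its highest library; replicates 1 and 2 differed by less than their counting error. Dusp2 without them had 2.92, 2.50 and 2.82 and stayed highest in replicate 1, though its replicates 1 and 3 were also within counting error of each other. This alternative was chosen after the data were seen.

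**Figure D3:**
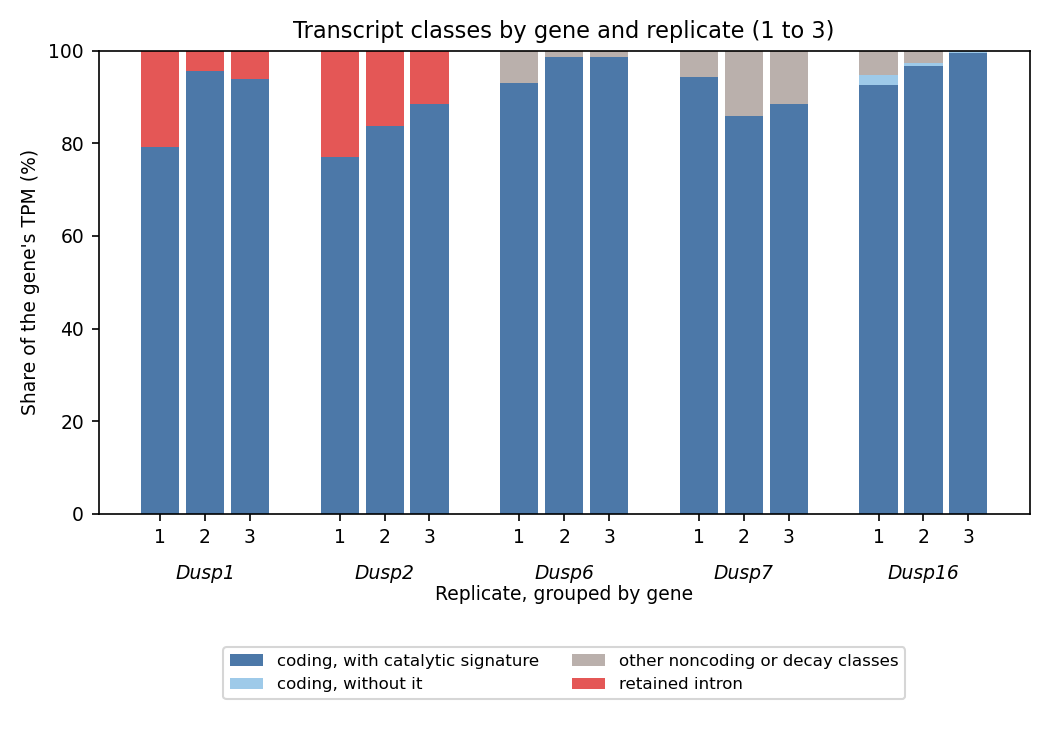
Share of each gene's TPM (percent, bars stacked to 100) held by transcript classes in replicates 1 to 3, for the 5 members with transcripts outside the coding class above 0. Retained-intron forms (red) appear in Dusp1 and Dusp2 and are largest in replicate 1, at 20.8% and 23%.

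The introns kept are short, and their borders are shown because they are what separates these forms from the mRNA. Dusp1-203 holds the whole of intron 2 of Dusp1-202 (chr17:26507205-26507573, minus strand, 369 bases). Dusp1-204 holds the whole of intron 3 (chr17:26506651-26506984, minus strand, 334 bases), and Dusp2-202 the whole of intron 2 of Dusp2-201 (chr2:127336899-127337248, plus strand, 350 bases). Dusp16-206 holds no whole intron, only 63 bases of an intron of 13816. Below, the last 15 exon bases and the first 15 intron bases at the 5′ splice site are given 5′ to 3′ from the retained-intron transcripts, with the first intron bases in capitals.
Dusp1 intron 2 (chr17:26507559-26507588): cctctctacgatcagGTtagtaggagtccg
Dusp1 intron 3 (chr17:26506970-26506999): ctattgacttcatagGTaaatggaataact
Dusp2 intron 2 (chr2:127336884-127336913): ccgatctatgaccagGTgagttgatattcg

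Read from the start codon of Dusp1-202, the frame of Dusp1-203 met a stop 108 bases into the intron, after 207 codons in place of 367, and before the catalytic loop. Dusp1-204 and Dusp2-202 are annotated without the start codon, so no such frame was read for them.

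The share of transcripts that code for the catalytic loop was 100% in every library for Dusp4, Dusp5, Dusp8 and Dusp10, 99.8% ± 0.247 for Dusp3, 96.7% ± 3.19 for Dusp6 and 96.2% ± 3.49 for Dusp16 (SD, n = 3). It was 89.6% ± 4.31 for Dusp7, where the processed transcript Dusp7-204 held 5.64%, 14% and 11.6% in replicates 1, 2 and 3. The second table gave Dusp7-204 shares of 0, 2.04% and 2.08%, so its level depends on the quantification. For Dusp1 and Dusp2 the loop-coding share was 89.6% ± 9.03 and 83.0% ± 5.73. A transcript was counted as loop-coding where any reading frame of its annotated coding part held the loop. Whether that frame is the annotated one was not checked for each transcript.

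Splits between similar coding forms were less certain. Dusp1-202 was the leading transcript of Dusp1 (50.9%, 79.9% and 83.1%), followed by Dusp1-206 (28.3%, 15.7% and 10.8%), to which the second table gave 9.05% in replicate 1 and 0 in the others. Dusp3-201 led Dusp3 with 75.8%, 60.6% and 63%. Dusp3-206 had 183, 2221 and 1681 expected counts with posterior SDs of 208, 442 and 281, so its count in replicate 1 was smaller than its posterior SD. Dusp16-201 led Dusp16 with 71.9%, 62.3% and 78.7% and Dusp16-202 held 20.7%, 34.4% and 20.8%.

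AU-rich elements in 3′ untranslated regions mark many short-lived mRNAs and are bound by the decay factor that Zfp36 encodes. The pentamer ATTTA was counted on the transcript strand in the annotated 3′ untranslated region of each member's leading coding transcript, overlapping matches included. Dusp2 held 4 in 581 bases (6.88 per kb) and Dusp1 4 in 690 bases (5.80 per kb), more per length than 96.7% and 94.9% of 9064 protein-coding genes of at least 1 TPM. Dusp10 had 2.70, Dusp8 2.11, Dusp4 1.80, Dusp16 1.24, Dusp3 1.11, Dusp5 0.902 and Dusp6 0.841 per kb, beside a median of 1.26 over those genes. Dusp7 had none in 1778 bases, while 65.6% of the genes held at least 1. The longer ATTTATTTA, which contains the pentamer in overlapping copies, occurred once each in Dusp1, Dusp8, Dusp10 and Dusp16 and in 5.27% of the genes. That occurrence is not per length: the regions of these members span 690, 2370, 1113 and 2411 bases, beside a median of 918 over the genes. Dusp8 and Dusp10 were under 1 TPM and so are not among the genes compared. The ATTTATTTA sites are shown with 10 flanking bases on each side and the motif in capitals.
Dusp1 (chr17:26506157-26506185, minus strand): gctggtccttATTTATTTAacacccccct
Dusp8 (chr7:142081713-142081741, minus strand): tcgattttttATTTATTTAagctagtgat
Dusp10 (chr1:184075517-184075545, plus strand): aaaaacaaaaATTTATTTAaaaaatattt
Dusp16 (chr6:134715962-134715990, minus strand): gtaagatgtaATTTATTTAagaatgaaaa

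A match describes these letters and does not show that a factor binds there. Genes for proteins that bind these elements were all detected, 7 of 7 at 1 TPM or more, led by Zfp36 at 56.2, 40.8 and 44.2 TPM (47.1 ± 8.13, SD, n = 3), and Tia1 was lowest at 4.14 ± 2.20 TPM. Of these 7, 4 varied beyond counting error, beside 71.5% of all genes tested. The highest CPM was in replicate 1 for 3 of those 4, beside 39.8% of all genes tested.

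Of the kinases that these phosphatases act on, Mapk3, which encodes an ERK, was highest at 36.5 ± 2.16 TPM (SD, n = 3), and Mapk14, the main p38 gene, had 27.9 ± 2.58 TPM. The JNK genes Mapk9 and Mapk8 had 17.3 ± 5.29 and 2.70 ± 1.16 TPM, and Mapk10 was lowest at 0.00333 ± 0.00577 TPM. Of 10 MAP kinase genes 6 reached 1 TPM in every library, and the list had a median of 7.34 TPM beside 2.32 TPM for the phosphatase genes. Of 7 that could be tested 5 varied beyond counting error, close to the 71.5% of all genes tested, 2 of them with the highest CPM in replicate 1 and 3 in another library.

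Upstream and downstream kinases were likewise present. Of 7 MAP kinase kinase genes 6 reached 1 TPM, from Map2k1 (34.1 ± 8.32, SD, n = 3) and Map2k2 (31.9 ± 1.16) to Map2k6 (0.690 ± 0.252). Of these 7, 5 varied, again close to 71.5%, 1 with its highest CPM in replicate 1 and 4 in another library. Of 9 genes for kinases activated by MAP kinases 8 reached 1 TPM, led by Mapkapk2, which acts below p38, at 65.8 ± 11.3 TPM, and by Mknk2 at 33.3 ± 0.560 TPM. All 9 varied, beside 71.5% of all genes tested, 2 with their highest CPM in replicate 1 and 7 in another library, and Rps6ka5 was lowest at 0.590 ± 0.173 TPM.

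Some phosphatases of other families that act on MAP kinases had mean levels between those of Dusp3 and Dusp1. Ppm1a had 21.5 ± 3.88, Ppp2ca 15.4 ± 2.74, and the leukocyte tyrosine phosphatase gene Ptpn7 10.9 ± 0.481 TPM (SD, n = 3). For Ptprr, with 0 counts, a level of up to 0.0301 TPM is allowed (3 counts, counting error only). Of 8 genes 6 reached 1 TPM and 6 could be tested, of which 5 varied (71.5% of all genes tested), 2 with the highest CPM in replicate 1 and 3 in another library. Among 16 further dual-specificity phosphatase genes 7 reached 1 TPM. Dusp28 and Dusp11 led with 9.65 ± 3.00 and 9.03 ± 3.87 TPM, below Dusp3 and Dusp7. Dusp9, the third ERK-directed cytoplasmic enzyme of the family, stood at 0.0567 ± 0.0289 TPM. No read was counted for Dusp15, Dusp21 and Dusp26, and 3 counts would make 0.037, 0.108 and 0.062 TPM. Of 8 tested 7 varied (71.5% of all genes tested), 3 with the highest CPM in replicate 1 and 4 in another library.

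**Figure D4:**
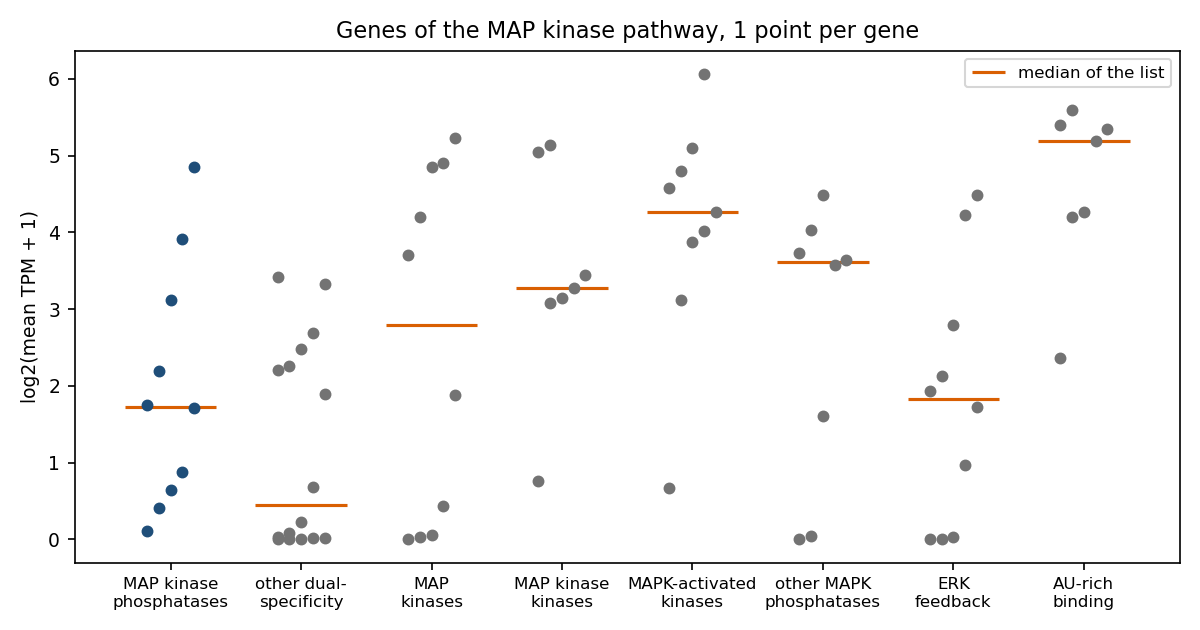
Log2(mean TPM + 1) of each gene (1 point per gene, mean of 3 libraries), with the median of each list as a bar. The lists are those of the MAP kinase pathway, the other dual-specificity phosphatases and the proteins that bind AU-rich elements. The phosphatase genes (blue) have a median of 2.32 TPM, below the 7.34 TPM of the MAP kinases and above the 0.387 TPM of the other dual-specificity phosphatases.

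Genes whose profile over the 3 libraries was most like that of the 2 highest members were sought among 9907 protein-coding genes of at least 100 counts on average, by the distance between centred log2 CPM values. The nearest to Dusp3 were Hes6, Card19 and Agpat2 (0.0075, 0.0080 and 0.0114), and the nearest to Dusp7 were Ndufa1, Tusc3 and Zfp518b (0.0016, 0.0025 and 0.0025). With only 3 libraries such likeness is common: 253 genes lay within 0.1 of Dusp3 and 870 within 0.1 of Dusp7.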

How the data were processed

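RNA of the cytosolic fraction was measured in 3 libraries of a single group, each made from 1 µg of RNA, per the labels. The authors deposited expected counts and TPM per gene and per transcript, computed from reads aligned to transcripts (build mm10, annotation GENCODE M21), per the notes deposited beside them. RSEM uses these column names. The share of each transcript is a deposited percent of its gene's TPM. A second transcript table, with the estimated counts and TPM column names of kallisto, was made by the authors from the reads. The sources used here do not give the tools' versions, the strand setting or any filter.

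Symbols and coordinates came from GENCODE M21. Entries without an annotated gene held 0.435%, 0.134% and 0.0823% of counts in replicates 1, 2 and 3 and stayed out. Expected counts were rounded, filtered by expression and TMM-scaled in edgeR 4.0.16 (R 4.3.3), and each gene was tested by chi-square against a single rate, with Benjamini-Hochberg adjustment across all genes (threshold 0.05). The test was checked on simulated Poisson counts with known changes in replicate 1, placed only in genes of at least 100 counts on average. That check did not cover changes in genes of lower counts, such as Dusp5 and Dusp8. Log2 CPM used a prior count of 2. With a single group there was no contrast for a quasi-likelihood test. Counting error is that of a Poisson count. Alternatives used DESeq2 1.42.0 size factors, library totals, no filter, the second table, other minimums, and each replicate left out.

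The members and gene lists were chosen with earlier results of these data known. Named genes are all members, the highest and lowest genes of each list (any gene of lists of 10 or fewer), the leading and retained-intron transcripts of members, and the 3 nearest profiles of the 2 highest members. Dusp7-204, Dusp1-206, Dusp3-206, Dusp16-202, Dusp9, Dusp15, Dusp21, Dusp26, Gm20659 and Ergic1 were named in addition, with their values already known. A gene of the MAP kinase list is not reported here by name.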

Additional observations from a re-analysis of the deposited data

How the results depend on the processing

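Of 10 members 6 reached 1 TPM in every library. At 5 TPM the count was 3, with at least 10 expected counts it was 10, and by TPM of the second transcript table it was 3. Scaled to protein-coding genes alone it was 8. Means in the second table were lower for 10 of 10 members, in the same order, among them Dusp3 (12.2 against 27.9 TPM), Dusp7 (6.04 against 14.1) and Dusp1 (3.55 against 7.66). The count of members varying beyond counting error lay between 6 and 10 with a replicate left out, and was 8 with no expression filter, where Dusp1 and Dusp6 did not pass. Over all genes it was 5126 of 12697 without replicate 1, 7278 of 12498 without replicate 2 and 7667 of 12462 without replicate 3. With no filter it was 11937 of 22148, against 8954 of 12515 in the main setting. The count of members with a retained-intron share of 10% was 2; it was 0 at a minimum of 20% and 0 by share of expected counts; with a replicate left out 1 to 2 members did. Replicate 1 was highest for 4 or 5 members under every scaling of counts, by first-table TPM and with retained-intron transcripts left out. By TPM of the second table, however, replicate 1 was highest for every member but Dusp5 (0.128, 0.128 and 0.134 TPM in replicates 1, 2 and 3). No paired analysis was possible because there was a single group. Depth limits Dusp5 and Dusp8 most, with 17 and 12 counts in replicate 1.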

Other observations

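The ERK feedback genes, a list of 10 that includes immediate targets and inhibitors of the pathway, were not alike in their order of libraries. Egr1 stood at 0.99, 2.92 and 3.00 TPM in replicates 1, 2 and 3 and Fos at 3.90, 6.47 and 7.35 TPM, both lowest in replicate 1. Spred1, which encodes an inhibitor of ERK activation, stood at 33.2, 15.6 and 15.8 TPM and was highest there. Ier3 (20.5, 15.4 and 17.3), Etv5 (3.98, 3.00 and 3.20), Spred2 (3.31, 2.76 and 2.41) and Spry2 (1.15, 1.03 and 0.71) also had their highest TPM in replicate 1. On the CPM scale 3 of the 7 tested, Spred1, Spred2 and Etv5, were highest in replicate 1 and 4 in another library. All 7 varied beyond counting error, beside 71.5% of all genes tested. The labels give no difference in treatment between the libraries, and the cause was not tested.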
